A study of Rattus norvegicus with 8 samples.

Results

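The genes described here are the weakly read genes of a rat dental epithelial cell line whose reads came almost wholly from one of its genotypes, AmeloD or Control. They were chosen on the genotype means themselves. A gene with a symbol was taken when its larger genotype mean was at least 0.25 CPM (reads of a gene scaled to a common library total), when that mean was at least 8 times the smaller one or the smaller one was 0, and when the mean of all 8 libraries was below 3 CPM. Ccnd2 was left out by the rule. This gave 108 genes, 85 higher in AmeloD and 23 higher in Control, out of 25921 rows with a symbol in a table of 30240 rows. They were 1.69% of the 6383 low genes that met the level limits. Since the genotype means chose the members, their genotype difference is a description and was not tested, and every test below is of the TGF or plasmid label.

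The cells were SF2, a line taken from the cervical loop of a rat's mandibular incisor, the niche whose epithelium renews the enamel-forming ameloblasts. Those labelled AmeloD overexpressed AmeloD, the basic helix-loop-helix regulator that Ascl5 encodes and that is known from dental epithelium, and the others were labelled Control. Within each genotype, 1 library carried each of the combinations pCMV6.ODAM TGF, pCMV6 TGF, pCMV6.ODAM N and pCMV6 N, so the study had 8 libraries and no combination was repeated. All 8 shared the SF2 background and a pCMV6-labelled plasmid. The labels spell out neither N nor TGF, and give neither how AmeloD was overexpressed nor whether a genotype was 1 clone. The spread quoted for a genotype is therefore the spread between 4 different combinations. Cultures are not told apart in the labels, so p-values measure only the spread between these libraries.

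Some genes with such a pattern are those of a specialised cell state, kept off or nearly off elsewhere, though the rule takes any faint gene. In barrier epithelia such genes encode keratins, claudins, kallikrein-related proteases, their inhibitors and small antimicrobial proteins. Interferon-stimulated genes and chemokines are off at rest and switch on with viral or inflammatory signals. Prolactin-related genes of rodents form a large cluster whose products are hormones of the placenta. TGF-beta acts through SMAD transcription factors and changes differentiation programmes of epithelial cells, including those of ameloblasts.

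Library totals were 10568146 to 13668736 reads in AmeloD and 14766931 to 17775226 in Control, so Control was sequenced more deeply. The table held 1662973 to 2854134 of a library's reads, and 1 read was worth 0.0732 to 0.0946 CPM in AmeloD and 0.0563 to 0.0677 CPM in Control. Ascl5 had 0 reads in all 8 libraries, so its own 3'-end reads did not check the genotype label. Odam had 3 and 0 reads in the AmeloD TGF libraries, 1 and 0 in the AmeloD N libraries, 17 and 0 in the Control TGF libraries and 10 and 1 in the Control N libraries, where the first of each pair is pCMV6.ODAM. Pmepa1, a membrane protein known to be induced by TGF-beta, rose by 3.03 ± 0.28 (log2, SE) in AmeloD and by 2.99 ± 0.28 in Control (limma with Benjamini-Hochberg adjustment, adjusted p = 2.61e-07 and 3.48e-07). Markers of dental and stratified epithelium (5 of 7 listed were in the table) summed to 733 to 841 CPM in AmeloD and 501 to 642 CPM in Control. Those of endothelium summed to at most 0.0924 CPM in AmeloD and 0.0677 CPM in Control, with Kdr, Tek and Emcn at 0 reads.

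The members were faint. Over the 8 libraries they had 12 to 293 reads, with a median of 28, and their median mean CPM was 0.508 on the AmeloD side and 0.406 on the Control side. Only 7 reached 1 CPM in at least 4 libraries. In the other genotype, 18 of the 85 AmeloD members and 11 of the 23 Control members had 0 reads. The 4 libraries of the higher genotype all lay above the other 4 for 58 of 85 AmeloD members and 13 of 23 Control members. The choice of members favours these counts. Of the 6383 low genes of either direction, 461 (7.22%) had all AmeloD libraries above and 205 (3.21%) all Control libraries above, together 10.4%. Counting Ccnd2, 3685 low genes were higher in AmeloD and 2699 in Control, so the shares within each direction are larger than these. Just inside the limit of 8 stood Cmpk2, Zfp174 and Lypd5, with ratios of genotype means of 8.02, 8.16 and 8.38. Just outside it stood Pcdha5, higher in Control, at 7.87, Alox12b, higher in AmeloD, at 7.85 and Itpr1, higher in Control, at 7.59. A further 8 rows without a symbol, 5 higher in AmeloD and 3 in Control, met the same limits and were not followed.

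**Figure D1:**
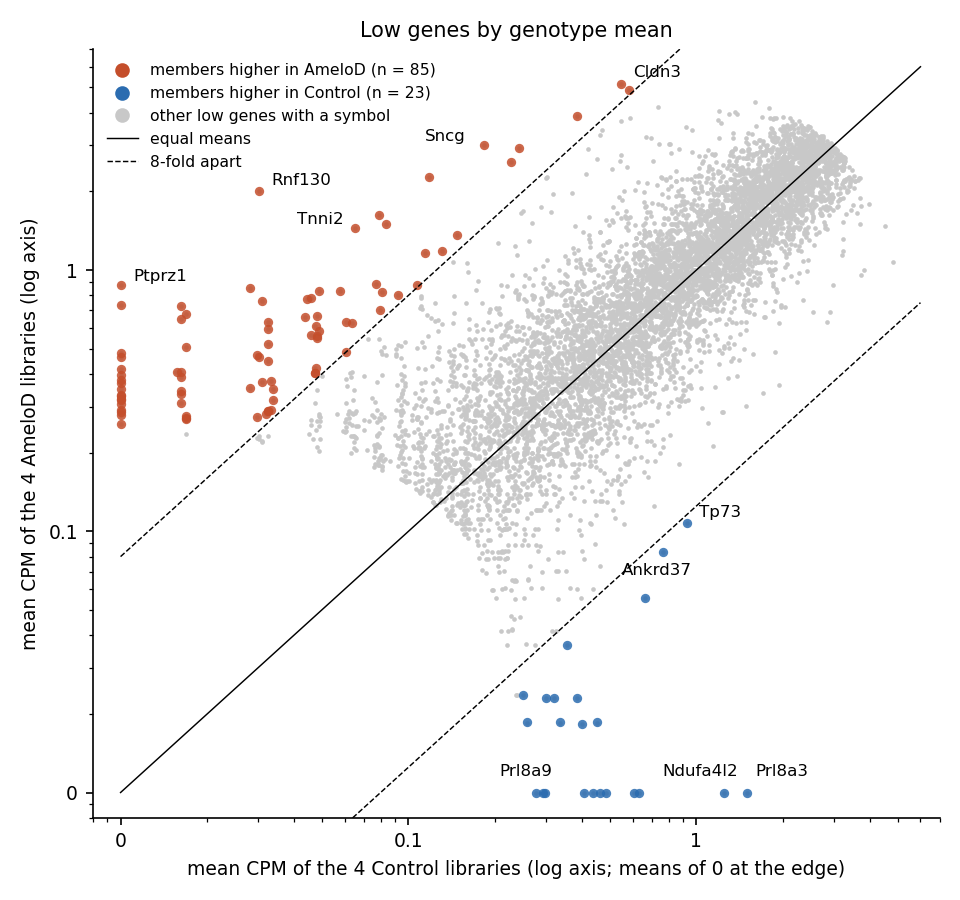
Mean CPM of the 4 AmeloD libraries (vertical, log axis) against the mean of the 4 Control libraries (horizontal, log axis) for low genes with a symbol, where each point is a gene and means of 0 are drawn at the edge. The 85 members higher in AmeloD lie above the upper dashed line and the 23 higher in Control below the lower one, with 18 and 11 of them at the edge.

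The AmeloD members with the highest means, Cldn3 and Lypd5, are genes of barrier epithelium. Cldn3, a tight-junction claudin, had 7.17 and 4.43 CPM in the AmeloD TGF libraries, 5.93 and 3.12 CPM in the AmeloD N libraries, 0.715 and 0.169 CPM in the Control TGF libraries and 0.677 and 0.626 CPM in the Control N libraries, with pCMV6.ODAM before pCMV6 in each pair here and below. All 4 AmeloD libraries lay above all 4 Control libraries. Its reads, scaled to library totals, were 10.03 times as many in AmeloD as in Control (95% counting interval 6.996 to 14.79). Lypd5, a Ly6-domain surface protein, averaged 4.87 ± 0.873 CPM in AmeloD and 0.582 ± 0.199 CPM in Control (SD, n = 4 libraries each). In the groups assembled after the values were seen, 17 members belong to barrier or stratified epithelium. Together they held 918 reads in AmeloD and 113 in Control, and their summed CPM was 17.2 to 20.3 in the AmeloD libraries and 1.01 to 2.27 in the Control libraries. Cldn3 and Lypd5 gave the larger part of that sum. By Gene Ontology terms in the deposited table, 3 of the 77 annotated AmeloD members (3.90%) carried a keratinocyte or epidermis term, against 1.56% of annotated genes tested. These were Acer1, Klk6 and LOC102549828, of which the last is not in the group of 17, and neither Cldn3 nor Lypd5 was among them. In these bulk libraries, fewer cells of a type and less RNA per cell cannot be told apart.

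The other barrier members were weaker, and several AmeloD members of other kinds had higher means than any of them. The stefin Stfa3, an inhibitor of cysteine proteases, averaged 1.62 ± 0.620 CPM in AmeloD and 0.0792 ± 0.0634 CPM in Control. Vsig8, an immunoglobulin-domain membrane protein, averaged 1.37 ± 0.694 CPM in AmeloD and 0.147 ± 0.113 CPM in Control. Acer1, the alkaline ceramidase of epidermis, averaged 0.783 ± 0.658 CPM in AmeloD and 0.0460 ± 0.0309 CPM in Control, with 0 reads in the AmeloD pCMV6.ODAM N library. The proteases Klk6 and Klk13 had 17 and 15 reads in AmeloD and 0 in Control. The transmembrane serine proteases Tmprss11a and Tmprss11d had 20 and 14 reads in AmeloD, against 3 and 2 in Control. Dapl1, Wfdc5, Krt24 (a type I keratin), Spink7 and Serpinb3 (protease inhibitors), Alox12 (a lipoxygenase), Plet1 and Upk3bl1 made up the rest, at 0.268 to 0.828 CPM in AmeloD and 0.0163 to 0.0920 CPM in Control.

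Secreted host-defence genes were another group of AmeloD members. Defb52, a beta-defensin, had 2.78 and 3.42 CPM in the AmeloD TGF libraries, 5.64 and 3.69 CPM in the AmeloD N libraries, 0.715 and 0.563 CPM in the Control TGF libraries and 0.203 and 0.0626 CPM in the Control N libraries. It was thus lower in TGF than in N among AmeloD libraries and higher in TGF than in N among Control libraries, and TGF minus N was not called in either genotype. Its neighbour Defb4 averaged 0.830 ± 0.438 CPM in AmeloD and 0.0578 ± 0.0796 CPM in Control. The ribonucleases Rnase1 and Rnase1l2 had 32 and 19 reads in AmeloD, against 3 and 1 in Control.

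Relatives of the members that are no members themselves were counted in the whole table. All 11 of the further kallikrein-related (Klk) rows with a read were higher in AmeloD, as were all 5 of the further beta-defensin (Defb) rows and all 4 of the further Tmprss11 rows. Of all 15398 rows with a symbol and a read that were no members, 55.9% were higher in AmeloD. Among further rows with a read, 7 of 8 Cxcl, 8 of 11 Wfdc, 3 of 4 Lypd, 5 of 10 Ccl and 5 of 10 claudin rows were higher in AmeloD, and so were the single Rnase1 and Stfa rows. These counts are descriptions without a test. Members of these families are similar in sequence, and the treatment of reads matching several genes was not given in the sources used here, so the split between paralogs is uncertain.

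**Figure D2:**
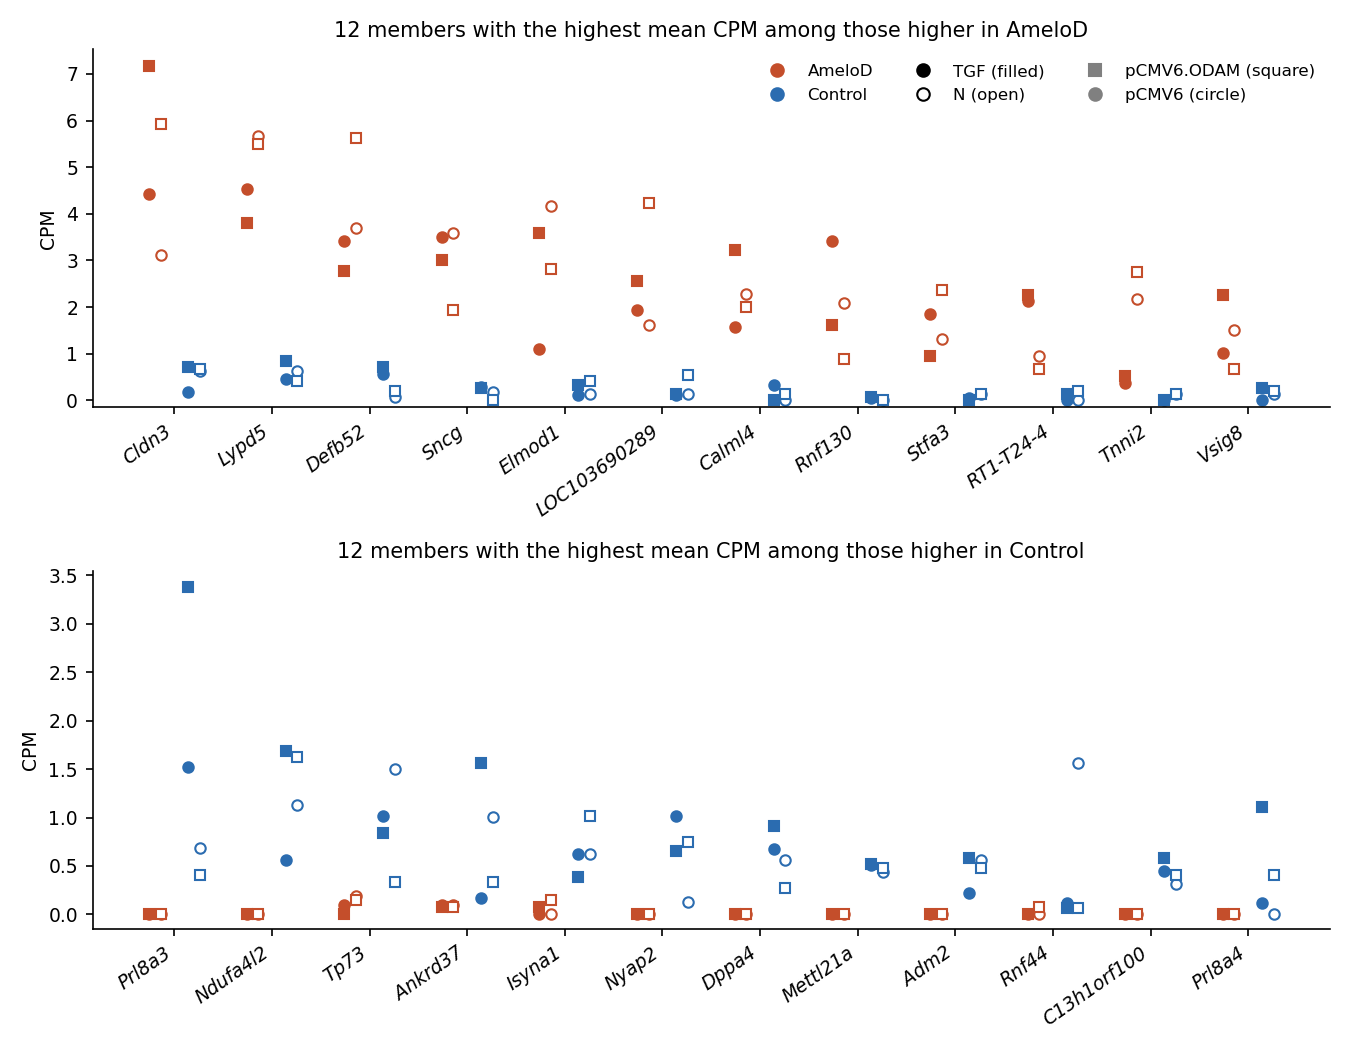
CPM in each library for the 12 members with the highest mean on either side, with AmeloD libraries left of Control libraries and TGF (filled) left of N (open), squares for pCMV6.ODAM and circles for pCMV6. For Tnni2 the AmeloD TGF points, at 0.512 and 0.370 CPM, lie below the AmeloD N points, at 2.74 and 2.18 CPM, and for Prl8a3 all 4 AmeloD points are at 0.

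Among the AmeloD members were 7 genes of the interferon and chemokine response (Ccl5, Cxcl10, Cxcl11, Cmpk2, Mx1, Shfl and Parp11), a group assembled after the values were seen. Together they held 128 reads in AmeloD and 9 in Control, a difference that the rule itself chose. Immune or inflammatory terms were carried by 9 annotated AmeloD members (11.7%) and 2 Control members (9.52%, Tp73 and Rig1), against 6.27% of genes tested. Rig1 had 1 read in AmeloD and 16 in Control. Some other genes of the interferon kind were closer between the genotypes. Irf7, an interferon regulatory factor, averaged 3.57 CPM in AmeloD and 1.61 CPM in Control, and Isg20, an interferon-induced exonuclease, averaged 0.409 CPM in AmeloD and 0.391 CPM in Control. Ccl5, a chemokine for T cells and monocytes, had 0.732 and 0.924 CPM in the AmeloD TGF libraries and 0.0742 and 0.189 CPM in the AmeloD N libraries, with 0 reads in the 4 Control libraries. Its reads were 10.1-fold higher in AmeloD when a floor of 3 reads was set for the Control group. Mx1, an antiviral GTPase, had 12 reads in AmeloD and 2 in Control. Cmpk2, a mitochondrial nucleotide kinase induced by interferon, had 24 reads in AmeloD and 4 in Control. Shfl, an inhibitor of viral translation, had 30 reads in AmeloD and 3 in Control. Parp11, a mono-ADP-ribosyltransferase, had 15 reads in AmeloD and 0 in Control. The 6 listed leukocyte markers, of which 4 had a read and Tyrobp and Csf1r were at 0, summed to 2.77 to 3.73 CPM in AmeloD and 0.876 to 1.63 CPM in Control, and their part in this group was not tested.

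Cxcl11 and Cxcl10, ligands of the receptor CXCR3, lie 12.5 kb apart on chromosome 14 (mRatBN7.2 positions 15689424 to 15692271 and 15704758 to 15706975), with no other row between them. Both had 12 reads in AmeloD and 0 in Control, but in different libraries. Cxcl11 had 0 and 11 reads in the AmeloD TGF libraries and 0 and 1 in the AmeloD N libraries. Cxcl10 had 1 and 1 reads in the AmeloD TGF libraries and 4 and 6 in the AmeloD N libraries. The windows around their starts, 250 bases before to 50 after, are shown because the pair was read together in one genotype and apart between libraries (RefSeq, GRCr8, plus strand, chr14:15973478-15973777 and chr14:15988816-15989115). Capitals mark a kappaB sequence and the core of an interferon response element, each searched on both strands, and the marked stretches do not overlap.
Cxcl11: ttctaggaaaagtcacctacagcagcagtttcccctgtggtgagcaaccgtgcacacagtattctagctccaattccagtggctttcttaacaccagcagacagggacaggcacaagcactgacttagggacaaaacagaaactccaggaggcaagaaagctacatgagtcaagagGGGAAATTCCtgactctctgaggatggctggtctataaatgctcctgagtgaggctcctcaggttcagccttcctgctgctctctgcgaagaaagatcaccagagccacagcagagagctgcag
Cxcl10: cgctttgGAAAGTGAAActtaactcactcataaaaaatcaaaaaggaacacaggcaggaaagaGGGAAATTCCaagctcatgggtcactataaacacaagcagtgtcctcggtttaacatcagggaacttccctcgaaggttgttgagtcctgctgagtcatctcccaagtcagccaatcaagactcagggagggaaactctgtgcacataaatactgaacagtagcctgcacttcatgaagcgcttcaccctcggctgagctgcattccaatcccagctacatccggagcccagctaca
The kappaB sequence stood in both windows, against 0.111% of the 33469 promoter windows of the table. The interferon core, which is the first marked stretch of Cxcl10, stood in the Cxcl10 window alone of the pair, against 3.92% of all windows. Among the 60 AmeloD members with a window, 2 held the kappaB sequence, Cxcl11 and Cxcl10 themselves. The interferon core stood in 3 of the 60, Cxcl10 among them. A match is a description of letters, not of binding.

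Genes of striated muscle, again grouped after the values were seen, differed among themselves between TGF and N. Tnni2, the fast skeletal isoform of troponin I, had 0.512 and 0.370 CPM in the AmeloD TGF libraries, 2.74 and 2.18 CPM in the AmeloD N libraries, 0 and 0 CPM in the Control TGF libraries and 0.135 and 0.125 CPM in the Control N libraries. The AmeloD TGF and N libraries did not overlap, and the test of this difference, given with the TGF results, passed its threshold in some settings and not in others. Trdn, triadin of the sarcoplasmic reticulum, had 0.512 and 0.462 CPM in the AmeloD TGF libraries and 0.964 and 1.61 CPM in the AmeloD N libraries. Ldb3, a Z-disc protein, had 7 and 6 reads in the AmeloD TGF libraries and 6 and 4 in the AmeloD N libraries. Acta1, skeletal muscle actin, had 1 and 14 reads in the AmeloD TGF libraries and 2 and 3 in the AmeloD N libraries, so a single library held most of it. Tnni2 and Trdn thus had fewer reads in TGF than in N, and Ldb3 and Acta1 more. Of the 5 listed muscle markers, 4 had a read, Myog was at 0 and the list summed to 0.284 to 1.57 CPM in AmeloD and 0.0626 to 0.281 CPM in Control. Acta1 is itself one of them, and the part of the others in this group was not tested.

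A few AmeloD members encode proteins known from neurons or glia. Synapse or axon terms were carried by 6 of the 77 annotated AmeloD members (7.79%), a smaller share than the 11.5% of annotated genes tested. Sncg, gamma-synuclein, averaged 3.01 ± 0.767 CPM in AmeloD and 0.182 ± 0.128 CPM in Control, and the libraries of the 2 genotypes did not overlap. Ptprz1, a receptor tyrosine phosphatase of glia, had 42 reads in AmeloD and 0 in Control, 18.4-fold higher in AmeloD at a floor of 3 reads. Syngr1 (a synaptic vesicle protein) and Gas7 (a membrane-shaping protein of neurons) had 31 and 18 reads in AmeloD, against 4 and 2 in Control. Syngr1 overlaps the ribosomal protein gene Rpl3 on the opposite strand, which averaged 45.0 CPM in AmeloD and 35.2 CPM in Control, and the strand setting was not given in the sources used here. For comparison, the 6 listed neural and Schwann markers, of which 5 had a read, summed to 0.742 to 1.10 CPM in AmeloD and 0.113 to 0.339 CPM in Control, with Snap25 at 0 reads. Their part in the neural members was not tested.

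The remaining named AmeloD members were enzymes, signalling proteins and regulators. Rnf130, a ubiquitin ligase, had 1.61 and 3.42 CPM in the AmeloD TGF libraries, 0.890 and 2.08 CPM in the AmeloD N libraries and 2 reads in all in Control, a ratio of 61.2 (95% counting interval 16.5 to 513). RT1-T24-4, a class I histocompatibility gene of a polymorphic family, had 2.27 and 2.12 CPM in the AmeloD TGF libraries and 0.667 and 0.946 CPM in the AmeloD N libraries, which did not overlap. Elmod1 (a GTPase-activating protein for Arf proteins) averaged 2.92 ± 1.33 CPM in AmeloD and 0.242 ± 0.146 CPM in Control. Calml4, a calmodulin-like protein, averaged 2.27 ± 0.698 CPM in AmeloD and 0.118 ± 0.160 CPM in Control. The steroid, retinoid and lipid enzymes Ephx2, Hsd11b1, Hsd17b14 and Rdh13 held 115 reads in AmeloD and 8 in Control. Hsd11b1, which regenerates active glucocorticoid, had 25 of these AmeloD reads and Ephx2, the soluble epoxide hydrolase, 41. These reads were uneven between libraries. Ephx2 had 13 and 2 reads in the AmeloD TGF libraries and 24 and 2 in the AmeloD N libraries. Hsd11b1 had 0 reads in AmeloD pCMV6.ODAM N, and Hsd17b14 had 11 of its 17 reads in AmeloD pCMV6 TGF. Rdh13 had 2 to 13 reads in each AmeloD library. Rapgef3 and Adcy6, an effector and a synthase of cyclic AMP, held 71 reads in AmeloD and 5 in Control. Sox11, a transcription factor of progenitor cells, had 13 and 5 reads in the AmeloD TGF libraries, 1 and 1 in the AmeloD N libraries and 0 in Control. The de novo DNA methyltransferase Dnmt3a had 39 reads in AmeloD and 5 in Control.

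The Control member with the highest mean was Prl8a3, of the placental prolactin family. It had 0 CPM in the 4 AmeloD libraries, 3.38 and 1.52 CPM in the Control TGF libraries and 0.406 and 0.689 CPM in the Control N libraries. Its reads were 24.3-fold higher in Control when a floor of 3 reads was set for the AmeloD group. Prl8a4 and Prl8a9 also had 0 reads in AmeloD. In Control, Prl8a4 had 17 and 2 reads in the TGF libraries and 6 and 0 in the N libraries, and Prl8a9 had 10 and 6 reads in the TGF libraries and 0 and 2 in the N libraries. The 3 genes lie within chr17:37295054-37514825 (mRatBN7.2). Of the other 21 prolactin-family (Prl) rows, 5 had a read, all of them higher in Control, but Prl2b1 and Prl7a3 had 1 read each, Prl8a2 had 4 and Prl8a5 had 5. The fifth and most abundant was Prl8a7, too highly read to be a member, with 3 reads in AmeloD and 2098 in Control. It had 58.2 and 47.6 CPM in the Control TGF libraries and 11.3 and 11.8 CPM in the Control N libraries. Prl8a3 had 3.19% to 5.82% as many reads as Prl8a7 in each Control library, Prl8a9 0% to 1.12% and Prl8a4 0% to 3.59%. Reads shared between such paralogs cannot be told apart here. The symbols are those of the deposited table. In RefSeq the genes named Prl8a3, Prl8a4 and Prl8a5 follow each other in another order along the chromosome, so the same symbol may not name the same gene in both, and no promoter window is shown for them. The listed trophoblast markers, led by Prl8a7 itself, summed to 0 to 0.371 CPM in AmeloD and 11.5 to 58.2 CPM in Control, with Tpbpa at 0 reads in all 8 libraries, and their part in the prolactin group was not tested.

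Both other Control groups were hypoxia-associated genes and developmental regulators. Ndufa4l2, a mitochondrial protein induced by hypoxia-inducible factor, had 0 CPM in AmeloD, 1.69 and 0.563 CPM in the Control TGF libraries and 1.62 and 1.13 CPM in the Control N libraries. It overlaps Shmt2 on the opposite strand, which averaged 4.58 CPM in AmeloD and 6.67 CPM in Control. Ankrd37, another hypoxia-induced gene, had 1 read in every AmeloD library, 24 and 3 reads in the Control TGF libraries and 5 and 16 in the Control N libraries. Tp73, a p53-family transcription factor, averaged 0.107 ± 0.0819 CPM in AmeloD and 0.924 ± 0.480 CPM in Control. Cdx2, the caudal-type homeobox factor of trophectoderm and intestine, had 1 read in AmeloD, 9 and 9 reads in the Control TGF libraries and 3 and 4 in the Control N libraries. Dppa4, a nuclear protein of pluripotent cells, had 0 reads in AmeloD and 39 in Control. Mettl21a, a lysine methyltransferase of chaperones, was the most even Control member, with 0 reads in AmeloD, 0.520 and 0.506 CPM in the Control TGF libraries and 0.474 and 0.438 CPM in the Control N libraries. Adm2, a peptide hormone of the calcitonin family, had 0 reads in AmeloD and 29 in Control. The inositol-phosphate synthase Isyna1 averaged 0.0554 ± 0.0709 CPM in AmeloD and 0.663 ± 0.260 CPM in Control. Nyap2, an adaptor of phosphoinositide 3-kinase, had 0 reads in AmeloD and 41 in Control.

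**Figure D3:**
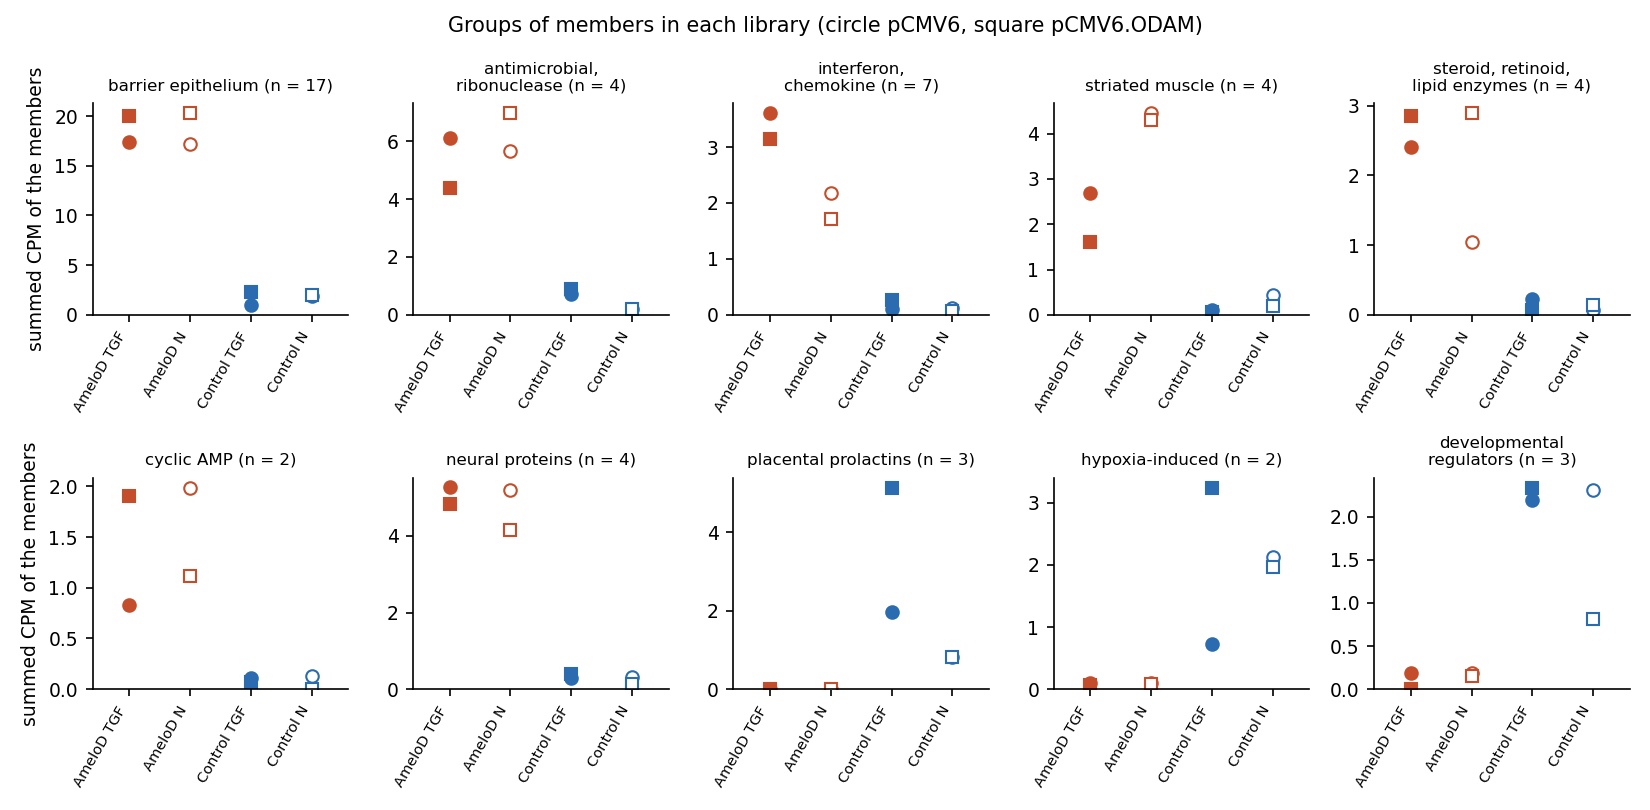
Summed CPM of the members of each group in each library, with AmeloD left of Control and TGF left of N (circles pCMV6, squares pCMV6.ODAM, filled for TGF), on axes that start at 0. The barrier genes sum to 20.1 and 17.4 CPM in the AmeloD TGF libraries and 20.3 and 17.2 CPM in the AmeloD N libraries, while the prolactin genes sum to 5.13 and 1.97 CPM in the Control TGF libraries and 0.813 and 0.814 CPM in the Control N libraries.

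TGF dependence was tested within the genotype in which a gene was read, on log2(CPM + 1), a scale that understates the change of genes this low. The spread of each gene was estimated from all 8 libraries, also those of the other genotype, where members had few or no reads. Standard errors of members can therefore be too small, and their p-values and the shares below too favourable. In AmeloD, 1 of 85 members was called (limma, adjusted p under 0.05), against 0.524% of the 11262 genes tested and 0.115% called lower in TGF. That member was Tnni2, which fell by 1.26 with a standard error of 0.22 on this log2 scale (adjusted p = 0.00480), and its reads in TGF were 0.180 times those in N (95% counting interval 0.0854 to 0.346). The call ended in edgeR's quasi-likelihood test on the recovered reads (log2 change -2.45, adjusted p = 0.116), with no filter on low values (adjusted p = 0.0905) and without the AmeloD pCMV6.ODAM TGF library (adjusted p = 0.0511). At an unadjusted p under 0.05 (limma) stood 20 of the 85 AmeloD members (23.5%), against 9.53% of genes tested. In Control, 0 of 23 members were called, against 0.204% of genes tested, and edgeR also called 0. There 5 members (21.7%) had an unadjusted p under 0.05, against 5.23% of genes tested. The rule used the same reads, so these shares are descriptions and no result about TGF. Prl8a3 came nearest to a call in Control, with a log2 change of 1.11 ± 0.25 (limma, adjusted p = 0.0580). It had 4.31 times as many reads in TGF as in N (2.53 to 7.76). It passed when any 1 of the AmeloD libraries or Control pCMV6 TGF was left out (adjusted p = 0.0171 to 0.0487). It missed by more without Control pCMV6.ODAM TGF (log2 change 0.67, adjusted p = 0.9997), Control pCMV6.ODAM N (0.84, 0.9999) or Control pCMV6 N (1.37, 0.375), and in edgeR (2.04, 0.375). Its neighbour Prl8a7 rose by 2.09 ± 0.24 in Control (adjusted p = 1.09e-05).

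Over both genotypes, 0 of 108 members were called for TGF by limma, against 0.879% of genes tested, while edgeR called 1, Tnni2. By limma 6 members (5.56%) had an unadjusted p under 0.05, against 9.96% of genes tested. This model averages the TGF change over both genotypes, and the rule leaves members few or no reads in one of them. Their change is thereby shrunk by the choice of members, so these counts are no result about TGF. The difference of the TGF effect between the genotypes was a contrast added after seeing the data, and was not computed with another tool. It was called by limma for 0 members and for 0 genes. At an unadjusted p under 0.05 were 11 members and 505 genes, the latter 4.48% of genes tested. Over all genes tested, the within-genotype TGF effects are thus not shown to differ between AmeloD and Control. For members the contrast cannot decide this, because few or no reads in one genotype leave little room for a TGF effect there. Of the genes in a list of 30 TGF-beta targets, 23 were tested and 0 were members. Of these 23, 4 were called higher in TGF in AmeloD, 3 in Control and 7 over both genotypes, and 0 were called lower (limma, adjusted p under 0.05). Their median log2 change was 0.57 in AmeloD and 0.51 in Control. The median over all genes tested was 0.03 in each genotype, and that of the members was -0.01 on the AmeloD side and 0.07 on the Control side.

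Counting intervals, which cover counting error alone and not the spread between libraries, gave a wider picture. On the AmeloD side 16 of 85 members (18.8%) had an interval of TGF over N above 1, against 11.5% of low genes with a like range of reads. Another 13 (15.3%) had one below 1, against 7.26% of those genes. On the Control side it was 6 of 23 (26.1%) above 1 and 4 of 23 (17.4%) below 1, against 9.19% and 6.57%. Members thus scattered in both directions, with medians of 1.03 and 1.19 times as many reads in TGF as in N on the AmeloD and Control sides. The rule used the same reads, so these shares are descriptions and no result about TGF.

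Among AmeloD members the largest TGF over N ratios at 20 or more reads belonged to Sox11 (8.84, interval 2.12 to 78.5), Ccl5 (6.55, 1.94 to 34.4) and Hsd11b1 (5.16, 1.74 to 20.7). Glipr2, a Golgi-associated protein of the same family as the member Glipr1, had 48 reads in TGF and 10 in N, with a log2 change of 0.97 ± 0.25 that missed the threshold (adjusted p = 0.0919). It passed without AmeloD pCMV6 N (log2 change 1.35, adjusted p = 0.0232) or AmeloD pCMV6 TGF (1.35, 0.0108). It missed by more without AmeloD pCMV6.ODAM N (0.59, 0.655) or AmeloD pCMV6.ODAM TGF (0.60, 0.611), and in edgeR (2.06, 0.424). RT1-T24-4 had a ratio of 2.79 (1.63 to 4.99) and missed the threshold as well (adjusted p = 0.157). At the other end, after Tnni2, stood Cadm4, a cell adhesion molecule (0.268, 0.0888 to 0.681), Lrrc37a (0.344, 0.123 to 0.846), S100vp (0.347, 0.112 to 0.921) and Trdn (0.393, 0.183 to 0.790). The 17 barrier members together had 462 reads in TGF and 456 in N in AmeloD, which is 0.995 times as many after scaling. Within that group Lypd5 was at 0.740 (0.566 to 0.966) and Acer1 at 2.41 (1.16 to 5.38). The interferon and chemokine members had 82 reads in TGF and 46 in N, the 4 muscle members 51 and 105 (11 and 60 of these in Tnni2), and the 3 prolactin members in Control 114 and 25. Cxcl11 and Cxcl10 lay on opposite sides, at 10.8 (1.57 to 465) and 0.196 (0.0209 to 0.922), and 11 of the 12 Cxcl11 reads came from 1 library.

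**Figure D4:**
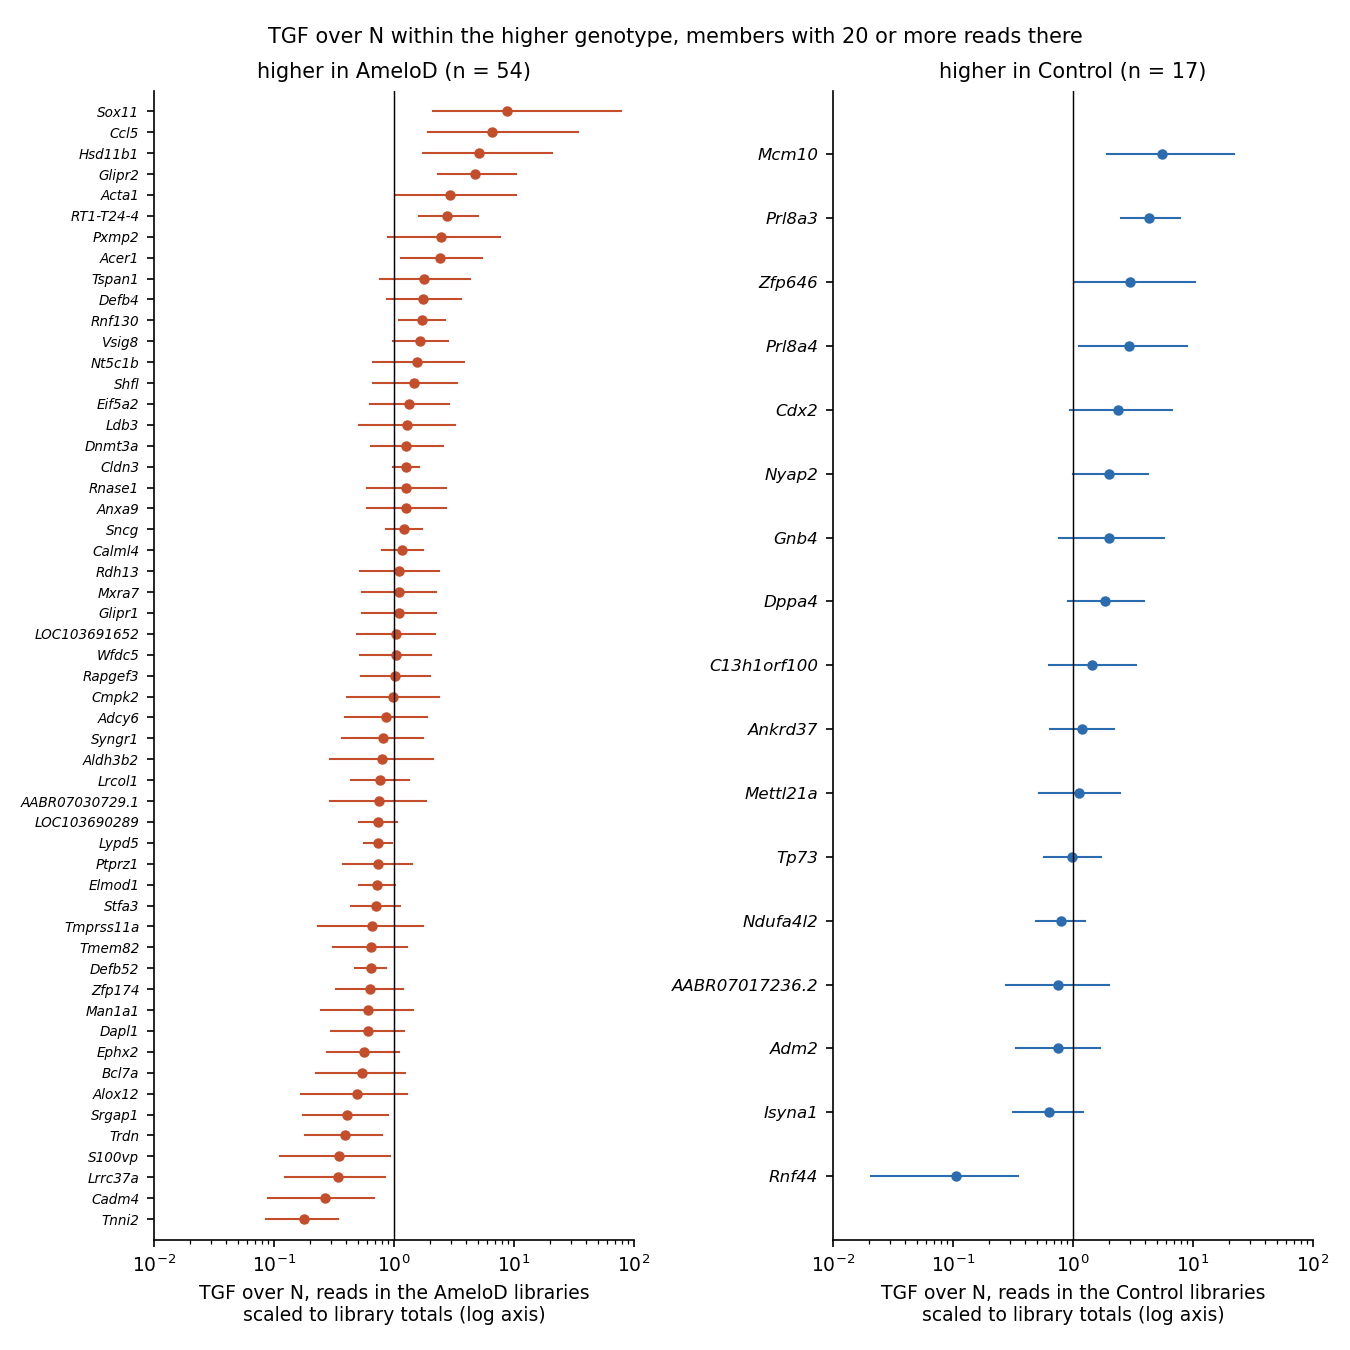
Ratio of reads in TGF to reads in N within the higher genotype, scaled to library totals (log axis), for the 54 AmeloD members (left) and 17 Control members (right) with 20 or more reads there, where points are ratios, bars are 95% counting intervals and the line marks 1. Tnni2 lies lowest in the left panel at 0.180, Sox11 highest at 8.84, and Prl8a3 at 4.31 in the right panel.

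The plasmid label moved no member past the test. With pCMV6.ODAM set against pCMV6 over both genotypes, 0 of 108 members and 0 of 11262 genes (0% called) passed limma's threshold. That model also averages both genotypes, which shrinks a plasmid change in members read mainly in a single genotype. At an unadjusted p under 0.05 were 8 members and 708 genes (6.29% of genes tested), and edgeR and DESeq2 called 0 members. Counting intervals of pCMV6.ODAM over pCMV6 lay above 1 for 8 AmeloD members (9.41%, against 7.84% of like genes) and 5 Control members (21.7%, against 8.95%). They lay below 1 for 11 AmeloD members (12.9%, against 6.90%) and 5 Control members (21.7%, against 6.43%). Because the rule used the same reads, these shares are descriptions.

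Many members rested on few libraries. Reads stood in all 4 libraries of the higher genotype for 65 of 85 AmeloD members and 16 of 23 Control members. More than 50% of the CPM came from a single library in 31 AmeloD members (36.5%) and 11 Control members (47.8%), against 8.40% of like genes in AmeloD and 8.03% in Control. A single high library can carry a gene past a limit on the mean, so the rule itself favours these shares. The like genes were matched on the range of reads alone. Sult4a1, a sulfotransferase of brain, had all 19 of its reads in Control pCMV6 N, and Rig1 had 16 of its 17 reads there and the other in AmeloD. Rnf44, a ubiquitin ligase, had 25 of its 29 Control reads in that same library. Mcm10, a DNA replication factor, had 24 of its 28 Control reads in Control pCMV6 TGF. Cd34, a sialomucin of endothelial and haematopoietic cells, had 16 of its 18 reads in AmeloD pCMV6.ODAM TGF. A separate count left each library out in turn, and 49 members (39 AmeloD, 10 Control) met the rule every time. Applied to either TGF label alone, the rule held in both for 41 members, in TGF alone for 35, in N alone for 27 and in neither for 5.

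**Figure D5:**
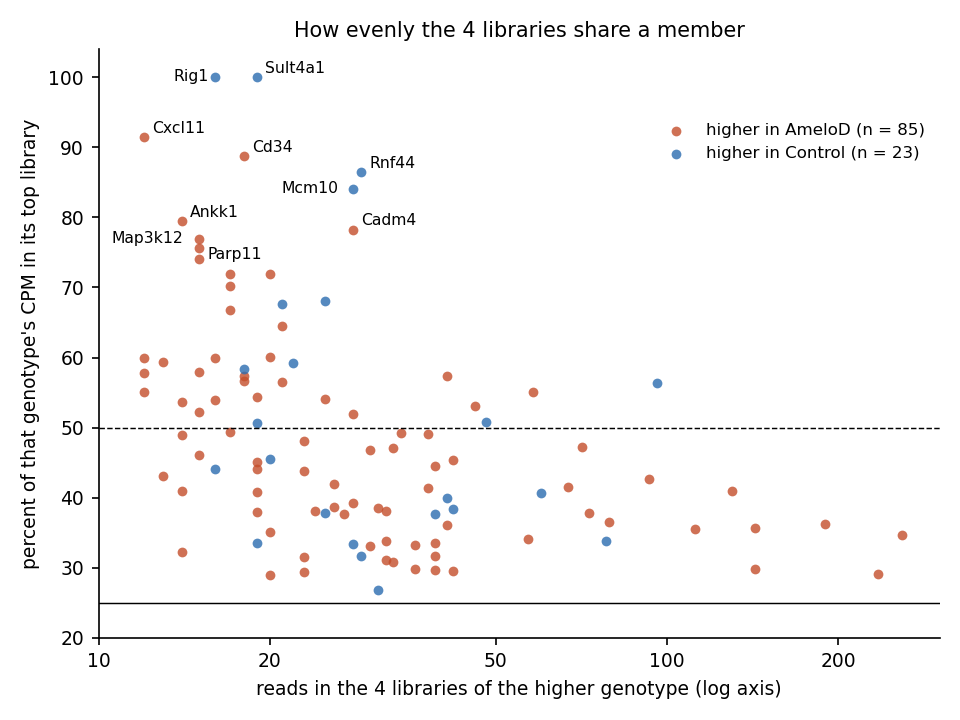
Percent of the higher genotype's CPM that came from its top library against the reads in that genotype (log axis), 1 point per member, where the solid line marks equal shares of the 4 libraries and the dashed line 50%. Members above 75% are named, and 6 of them are AmeloD members and 4 Control members.

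Position and annotation were not used by the rule. Within 500 kb there were 13 pairs of members of the same side and 0 pairs of opposite sides, and they involved 20 AmeloD and 3 Control members. The counts were not tested, and no background share was taken from other genes. Most members were AmeloD members, which by itself favours pairs of the same side. The Control pairs were all among Prl8a3, Prl8a4 and Prl8a9. Several pairs were of related genes, between which the split of reads is uncertain. The AmeloD pairs were Cxcl11 and Cxcl10, Tmprss11a and Tmprss11d, Tnni2 and Prr33, Lrcol1 and Pxmp2, Rnase1 and Rnase1l2, Defb52 and Defb4, Klk13 and Klk6, Lypd5 and Cadm4, Sncg and Ldb3, and Wfdc5 and LOC103690289. AmeloD pairs of related genes were separated by 12.5 kb (the CXCR3 ligands) to 103 kb (the kallikreins). Tnni2 and Prr33 lie 47.3 kb apart on chromosome 1 (mRatBN7.2 positions 197594813 to 197597560 and 197644902 to 197650714). Prr33 had 6 reads in the AmeloD TGF libraries and 10 in the AmeloD N libraries, and it overlaps Lsp1 on the opposite strand, which averaged 2.43 CPM in AmeloD and 0.511 CPM in Control. In all, 20 members overlapped another row and 7 overlapped a row with a mean at least as high.

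Gene Ontology terms in the deposited table were matched as text. Terms grouped as secreted were carried by 24.7% of the 77 annotated AmeloD members and 19.0% of the 21 annotated Control members, against 5.82% of 9908 annotated genes tested. A match does not make a product secreted. The AmeloD ones included Lrcol1 and Defb4 but also the histocompatibility gene RT1-T24-4, Golgi-associated Glipr2 and the receptor phosphatase Ptprz1, and not Defb52 or Wfdc5. The Control ones were Prl8a3, Adm2, Prl8a4 and Prl8a9. Hormone or growth factor terms were carried by 4 Control members (19.0%), the same 4, and by 1 AmeloD member (1.30%, Pgf, a placental growth factor), against 0.676% of genes tested. Plasma membrane terms were carried by 22 AmeloD members (28.6%) and 1 Control member (4.76%), against 19.8%. These shares are descriptions without a test. Of the 108 members 80 matched a RefSeq promoter window, and 4 of these matches (Prl8a3, Prl8a4, RT1-T24-4 and Tnni2) were left out because the gene stands in another order among its neighbours there, which left 60 AmeloD and 16 Control members. The E-box CANNTG, the general motif of basic helix-loop-helix factors, stood in 66.7% of the AmeloD and 62.5% of the Control windows, against 72.1% of all windows of that length. The SMAD sequence GTCTAGAC stood in 0 of 60 and 0 of 16, against 0.197%.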

How the data were processed

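Messenger RNA of 8 SF2 libraries was measured by 3'-end sequencing. Per the labels' protocols, libraries were made with the QIAseq UPX 3' kit, and reads were aligned to mRatBN7.2 with STAR before counting by featureCounts. The submitters' processing notes give STAR 2.7.10a, featureCounts 2.0.1, cutadapt 3.7, Trimmomatic 0.39, DESeq2 1.20.0 and Trim Galore 0.6.7. Molecular identifiers, strand setting and treatment of shared reads were not given in the sources used here. Per gene and library, the authors deposited CPM scaled to totals larger than the reads in the table. Dividing by the CPM of 1 read gave whole reads for 100% of the values (tolerance 0.01), and these reads gave the counts, counting intervals and floors.

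The members, groups and gene lists were chosen with earlier results of these data known. Genes were tested where the mean of the 8 libraries reached 0.125 CPM (11262 genes), a limit every member passes by its own rule. The main test was limma 3.58.1 (R 4.3.3) on log2(CPM + 1), eBayes with trend, two-sided, with Benjamini-Hochberg adjustment over all genes tested and a threshold of 0.05. TGF within a genotype came from genotype-by-TGF means with plasmid added (3 residual degrees of freedom), and TGF and plasmid overall from an additive model (4). Alternatives were other pseudocounts, filters, TMM scaling, edgeR 4.0.16, DESeq2 1.42.0, no plasmid term and leaving out each library. Ratios of reads carry exact 95% conditional (Clopper-Pearson) intervals scaled to library totals. These intervals cover counting error alone, because reads may be copies of a molecule. Folds at a floor of 3 reads leave out the counting error of the higher genotype and are no lower bounds.

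Reads were simulated around each gene's mean over all 8 libraries, equal in both genotypes before a change was added, with a single fixed spread. On these simulated data of 11262 genes, the test of TGF within AmeloD recovered 36 of 36 genes below 3 CPM raised 8-fold and 7 of 29 lowered 8-fold. It recovered 1 of 32 raised 2-fold and 0 of 33 lowered 2-fold. Within Control it recovered 33 of 33 raised 8-fold, 12 of 35 lowered 8-fold and 3 of 33 raised 2-fold. The members were read mainly in a single genotype and many mainly in a single library, so these counts do not carry over to them. Sox11, with 8.84 times as many AmeloD reads in TGF as in N, was not called (limma, adjusted p = 0.14).

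Named members are the 12 with the highest mean per side, those past a TGF or plasmid test, those sharing a symbol stem or lying within 500 kb of another, up to 8 per side with 0 reads in the other genotype, those nearest the fold limit and up to 4 per Gene Ontology group. Others named for reads in few libraries, for TGF ratios or for a group were chosen after their values were seen. Promoter sequences are from RefSeq (GRCr8), matched by symbol or identifier. A match was kept where the gene stood in the same order in both sources among the 10 shared symbols on either side, and coordinates of the 2 builds were not mixed.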

Additional observations from a re-analysis of the deposited data

Results flagged for a closer look

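In 14 of the 108 members, 8 on the AmeloD side and 6 on the Control side, 1 of the 4 libraries of the higher genotype stood far from the other 3, measured as the gap to its nearest neighbour over the whole range. The limit used would mark about 1 in 20 groups of normally spread values. These values are low counts, and the rule lets in genes carried by 1 high library. The share flagged among other low genes was not measured, so no excess can be read from this count. The 4 libraries are also different combinations rather than replicates. The gap was the whole range (1) for Sult4a1 and Rig1, whose Control reads all lay in pCMV6 N. It was 0.968 for Rnf44, high in Control pCMV6 N, 0.861 for Mcm10 and 0.857 for Ppic, high in Control pCMV6 TGF, and 0.906 for Zfp646, high in Control pCMV6.ODAM TGF. Zfp646 overlaps Zfp668 on the opposite strand. On the AmeloD side it was 0.907 for Cxcl11 and 0.851 for Defb4, high in pCMV6 TGF, 0.873 for Cd34 and 0.880 for Anxa9, high in pCMV6.ODAM TGF, 0.886 for Cadm4, high in pCMV6 N, and 0.853 for Tmem82, high in pCMV6.ODAM N. Eif5a2, at 0.856, was low in pCMV6 N, and AABR07030729.1, at 0.835, was low in pCMV6 TGF. Sult4a1, Rig1, Cd34, Cxcl11 and Ppic had under 20 reads over the 8 libraries.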

How the results depend on the processing

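No paired analysis was possible because each combination of genotype, plasmid and TGF label has 1 library and the labels give no replicate numbers. The number of members found was 256 at a fold limit of 4, 59 at a limit of 16, 50 at a level limit of 0.5 CPM, 222 in the N libraries alone (68 of the 108) and 185 in the TGF libraries alone (76 of the 108). For TGF in AmeloD, 59 genes were called, against 11 with no filter on low values, and 1 member, against 0 with no filter, with a filter of 1 CPM in 4 libraries (7 members tested) and in edgeR. DESeq2 gave the members no adjusted p in either genotype. For TGF in Control, 23 genes were called, against 8 with no filter. For TGF over both genotypes edgeR called 1 member, against 0. For the plasmid DESeq2 called 1 gene, against 0. Tnni2 kept its direction in all 14 alternatives that gave a value, and lost its call in the 3 settings given above.

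Leaving out 1 library at a time, TGF in AmeloD called 24 to 90 genes (90 without AmeloD pCMV6 TGF, 24 without AmeloD pCMV6.ODAM N or AmeloD pCMV6.ODAM TGF, 27 and 28 without Control pCMV6 N and Control pCMV6.ODAM N) and 0 to 4 members (4 without AmeloD pCMV6 TGF, 2 without either AmeloD N library, 0 without AmeloD pCMV6.ODAM TGF). TGF in Control called 3 to 35 genes (35 without either AmeloD TGF library, 3 without Control pCMV6.ODAM N, 5 without Control pCMV6.ODAM TGF, 6 without Control pCMV6 N) and 0 to 1 members. TGF over both called 53 to 84 genes (53 without AmeloD pCMV6.ODAM N, 65 without Control pCMV6 N), and the plasmid 0 to 2 (2 without Control pCMV6.ODAM TGF). The rule found 115 to 131 members, each time counted without 1 library. TMM scaling moved the median log2 difference over genes tested by under 0.1. The cause of these shifts was not tested. At this depth 1 read is a large step, so ratios of members with 12 reads have wide counting intervals.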
